A study of Mus musculus with 6 samples.

Results

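The genes described here encode the metalloproteases that cut extracellular matrix and cell-surface proteins, together with their tissue inhibitors. Every gene of the deposited table whose symbol names a matrix metalloprotease (Mmp), a membrane-anchored disintegrin metalloprotease (Adam), a secreted relative with thrombospondin repeats (Adamts), a protease-less relative of these (Adamtsl) or a tissue inhibitor (Timp) was taken. This gave 83 of 20325 genes, of which 4 were Timp, 23 Mmp, 32 Adam, 19 Adamts and 5 Adamtsl genes. The members were chosen by name and not by their values. RNA came from C3H10T1/2, a single established line of multipotent mesenchymal cells from C3H mouse embryos, kept in medium with serum and used between passage 10 and passage 15. Parental cells received either a scrambled siRNA (control, 3 libraries) or siRNAs that target Ring1a and Ring1b (knockdown, 3 libraries). The comparison asked what depletion of both proteins, the ubiquitin ligases of Polycomb repressive complex 1, does to the transcriptome of mesenchymal progenitors. The labels name neither the siRNA sequences nor the time from transfection to harvest.

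Mmp enzymes are made as inactive precursors, with a zinc ion in the active site that the propeptide covers until it is cut off. Timp proteins bind the opened active site, and the balance of both sets how fast collagens, proteoglycans and adhesion proteins are turned over. Adam proteases sit in the cell membrane and release the outer part of growth factors, receptors and adhesion molecules, while Adamts enzymes work in the matrix on proteoglycans, procollagens and cartilage proteins. Mesenchymal cells and chondrocytes are known sources of Mmp2, Mmp14, Timp2, Timp3 and the aggrecan-cutting Adamts enzymes.

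Deposited totals lay between 13100000 and 13700000 in 5 libraries and at 19500000 in knockdown replicate 2, and the depth estimated before scaling ran from 4600000 reads (knockdown replicate 2) to 51800000 (control replicate 1). Knockdown replicate 2 stood apart. Its log2 values correlated with those of the other libraries, across genes, at 0.821 to 0.867, against 0.944 to 0.993 for all other pairs. Rnf2, which encodes Ring1b, was 815, 829 and 799 in the controls and 129, 76.5 and 152 in the knockdowns, and it fell (log2 fold change −2.82, SE 0.28, limma adjusted p = 0.00946). Ring1, which encodes Ring1a, was 336, 386 and 374 against 162, 268 and 186, apart in every library, and passed without knockdown replicate 2 (limma adjusted p = 3.86e-06) but not with it (−0.86, limma adjusted p = 0.104). All 9 mesenchymal markers were at 10 or more in every library, with a summed value of 304000 to 461000, carried by collagens and Vim. They did not all move alike: Pdgfra was 5113, 4262 and 4432 in the controls and 2488, 731 and 2355 in the knockdowns, Vim was lower in all 3 knockdowns, and Twist1 and Thy1 were higher in all 3. The summed values of the 8 leukocyte markers (24.3 to 59.5), 6 epithelial markers (15.0 to 38.3), 5 endothelial markers (87.7 to 156, mostly Tek) and 7 germ cell markers (10.7 to 25.6) were small beside it, and the leukocyte genes Emr1, Tyrobp and Cd3e were listed at 0 in all 6 libraries.

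Of the 83 members, 40 had a mean of at least 10 over the 6 libraries and were tested, 23 were above 0 somewhere but under that filter, and 20 were listed at 0 in every library. With all 6 libraries, 1 member rose and 1 fell (limma on log2(value + 1), Benjamini-Hochberg adjusted p under 0.05 over all genes tested), which is 5.0% of the 40, next to 4.98% of all 12085 genes tested (3.2% higher and 1.78% lower). At an unadjusted p under 0.05 in the same fit, 8 of the 40 members were higher and 8 lower. Of all 12085 genes tested, 2473 had such a p in either direction, and whether the shares differ was not tested. All 3 knockdown libraries lay above all 3 controls in 9 tested members (22.5%; 20.5% of all genes tested) and below them in 14 (35%; 23.7% of all genes tested). The median log2 fold change, knockdown minus control, was −0.19 over the tested members and 0.01 over all genes tested. Without knockdown replicate 2, 14 of 39 tested members rose and 14 fell, 71.8% of them, beside 49.9% of all genes tested in that fit (23.8% higher and 26.1% lower); whether the members' share differs from that of other genes was not tested. By family, 1 Timp rose and 2 fell of 3 in that fit, 2 Mmp rose and 5 fell of 9, 2 Adam rose and 4 fell of 10, 7 Adamts rose and 3 fell of 13, and 2 Adamtsl rose and 0 fell of 4. Differences between the families were not tested. Of these 28 members, 27 had the same sign with all libraries, and Adam9 did not.

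**Figure D1:**
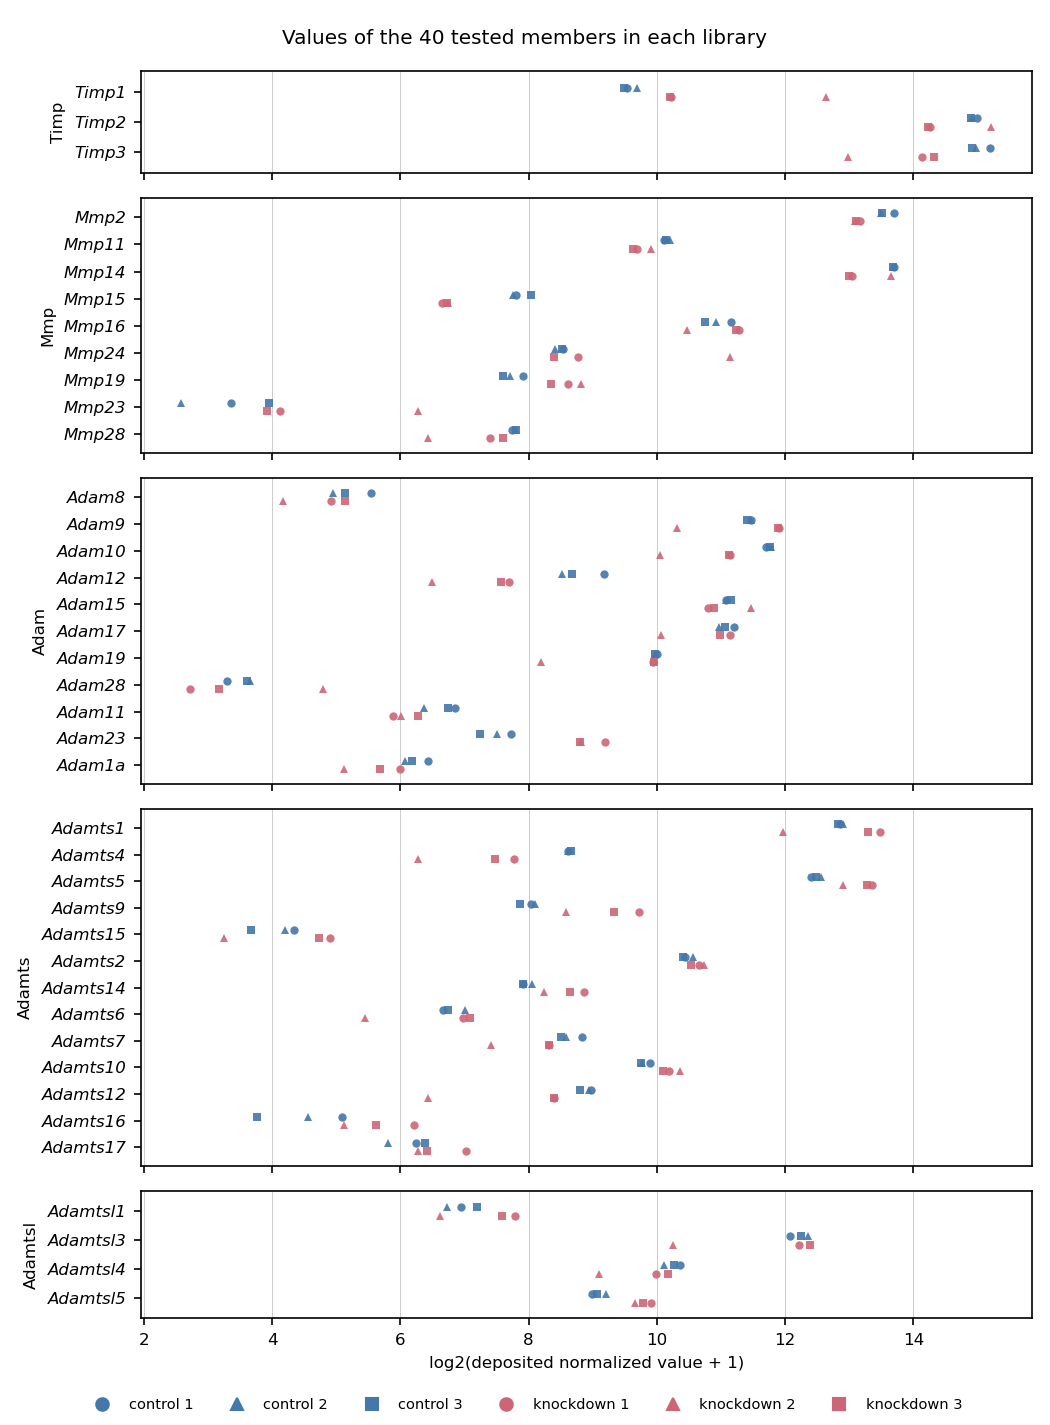
Each point is the deposited normalized value of a tested member in 1 library, as log2(value + 1) on the horizontal axis, with controls in blue, knockdowns in red and the marker shape giving the replicate number. Knockdown replicate 2 (red triangles) lies below the other knockdowns in 26 of the 40 members and above both in 12.

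Knockdown replicate 2 differed from its partners in step with transcript length, and most of these genes have long transcripts. The tested members had a median transcript length of 4430 nt, against 2757 nt for all genes tested. They were a median of 0.74 log2 units lower in knockdown replicate 2 than in the mean of knockdown replicates 1 and 3, where all genes tested were 0.10 lower. Across genes, which are not independent replicates and share these libraries, this difference and length had a Spearman correlation of −0.599 over 11947 genes and −0.517 over the 40 members. The shortest tested member, Timp1 (858 nt), was 2.43 log2 units higher in that library, and Adamts12 (8579 nt) was 1.97 lower. Results are therefore given with and without it. The part that transcript length plays in them was not tested beyond length-corrected fits, chosen after the data had been seen. In the length-corrected fit with all libraries, 5 members rose and 5 fell of 40 (25%, beside 11.2% of all genes tested, 6.93% higher and 4.23% lower). All 10 of these were also called, in the same direction, without knockdown replicate 2. The other members called without knockdown replicate 2 did not pass with the length correction and all libraries, the fit that the length correction stands for below. A further length-corrected fit, without knockdown replicate 2, called 16 of 39 members higher and 14 lower. It called 6124 of all 11859 genes tested.

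**Figure D2:**
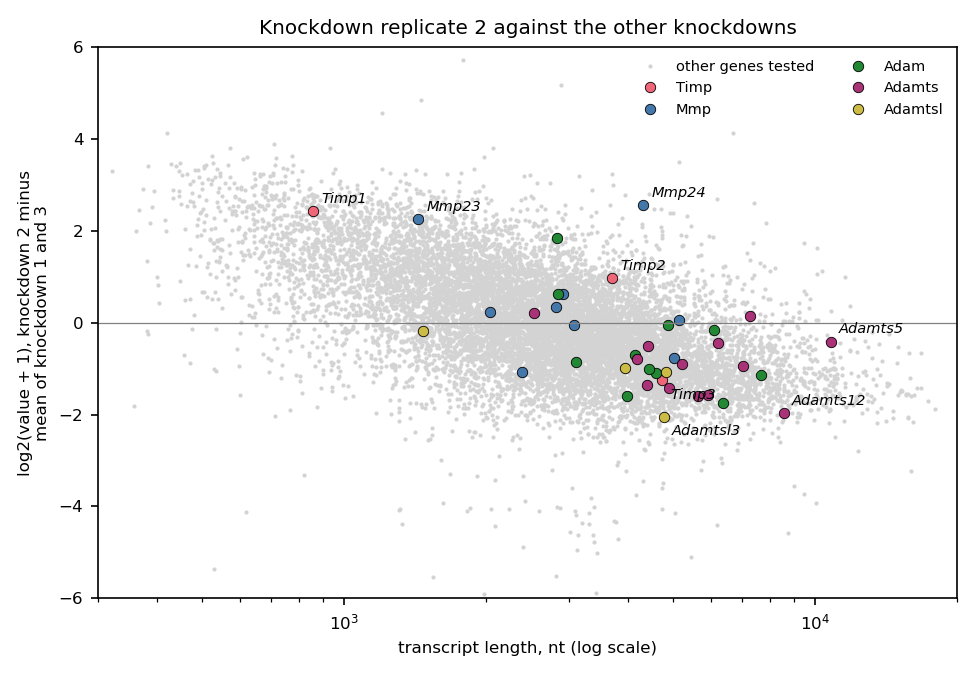
The vertical axis is log2(value + 1) in knockdown replicate 2 minus the mean of knockdown replicates 1 and 3, and the horizontal axis is transcript length in nt on a log scale. Coloured points are the 40 tested members and grey points the other genes tested (8 genes fall outside the axes); short transcripts such as Timp1 lie above the line at 0 and long ones such as Adamts12 below it, with Mmp24 standing off the trend.

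Timp2 and Timp3 had the highest mean levels per kb of all members in the controls. No Timp passed the test with all libraries, and without knockdown replicate 2 Timp2 and Timp3 fell and Timp1 rose. RNA from a culture as a whole cannot tell fewer cells with a transcript from less of it per cell. Timp3, whose product is held in the matrix and blocks Adam17 and the aggrecan-cutting Adamts enzymes as well as Mmp enzymes, stood at 37634, 32126 and 30750 in the controls, against 18045, 8071 and 20477 in knockdown replicates 1, 2 and 3. The groups did not overlap, and the mean was 2.16-fold lower (log2 fold change −1.21, SE 0.39), and this did not pass (adjusted p = 0.162). Without knockdown replicate 2, Timp3 fell by 0.80 on the log2 scale (SE 0.09, adjusted p = 3.29e-05), and it also fell with the length correction (adjusted p = 0.0353). Timp2, which both inhibits Mmp2 and helps Mmp14 to activate its precursor, was at 32534, 30700 and 30583 in the controls. The knockdowns split, with 19559 and 19212 in replicates 1 and 3 and 38083 in replicate 2. With all libraries it did not pass (log2 fold change −0.36, SE 0.32, adjusted p = 0.507), and without knockdown replicate 2 it fell 1.61-fold (adjusted p = 1.78e-06).

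Timp1, a secreted inhibitor that many cells induce on stimulation, went the other way. Its values were 738, 822 and 716 in the controls and 1195, 6386 and 1179 in the knockdowns. All knockdowns were above all controls, replicate 2 by far the most, and the 3.85-fold higher mean did not pass (log2 fold change 1.46, SE 0.68, adjusted p = 0.298). Without that library Timp1 rose 1.56-fold (log2 fold change 0.65, SE 0.07, adjusted p = 9.79e-06). Per kb of transcript, Timp1 made up 4.89, 5.97 and 5.35% of the summed Timp level in the controls and 13.3, 38.3 and 12.6% in the knockdowns. Timp1 lies within an intron of the synapsin gene Syn1 and Timp3 within Syn3, both on the opposite strand in GENCODE M21, and these hosts had control means of 16.7 and 69.4. Timp4 was at most 2.85 in any library.

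Of the secreted Mmp enzymes, only Mmp2, Mmp11, Mmp19 and Mmp28 were above a control mean of 10, and Mmp9 and Mmp21 reached at most 5.68 and 0.71. Mmp2 (gelatinase A, which cuts denatured collagen and basement membrane collagen) stood at 13325, 11587 and 11649 in the controls, against 9230, 8673 and 8805 in the knockdowns. Every knockdown, replicate 2 included, lay below every control, a 1.37-fold lower mean that did not pass with all libraries (log2 fold change −0.45, SE 0.16, adjusted p = 0.20) and passed without knockdown replicate 2 (−0.43, adjusted p = 0.000262). Mmp11, a stromelysin that furin activates inside the cell, was 1111, 1175 and 1127 in the controls against 830, 957 and 795 in the knockdowns. Its groups were apart as well (log2 fold change −0.41, SE 0.14, adjusted p = 0.187), and it fell without knockdown replicate 2 (−0.49, adjusted p = 2.50e-05) and with the length correction (adjusted p = 0.0253).

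Mmp19 was the secreted Mmp with higher values. It stood at 241, 209 and 194 in the controls, against 391, 452 and 324 in the knockdowns. These groups did not overlap, and the 1.81-fold higher mean came close to the threshold without reaching it (log2 fold change 0.85, SE 0.19, adjusted p = 0.0682). Without knockdown replicate 2 Mmp19 rose (0.73, adjusted p = 0.000245), and so it did with the length correction (adjusted p = 0.0367). Mmp28 (epilysin) was at 212, 223 and 224 in the controls, against 168, 85.0 and 194 in the knockdowns (log2 fold change −0.64, adjusted p = 0.333; −0.28, adjusted p = 0.0386 without knockdown replicate 2). Mmp28 shares exon sequence with a gene on the other strand, 1700020L24Rik, and since the strand setting of the counting is not given, reads of the pair cannot be told apart. Mmp23 passed the filter only through the knockdowns (control mean 9.60), with 9.32, 5.01 and 14.5 against 16.4, 76.5 and 14.2.

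The membrane-type enzymes included the only Mmp gene that fell with all libraries. Mmp15 (MT2-MMP, an enzyme anchored by a transmembrane segment) stood at 222, 216 and 263 in the controls, against 99, 106 and 105 in the knockdowns. The 3 knockdown values lay close together and far below the controls, a drop of 2.26-fold (log2 fold change −1.17, SE 0.16, adjusted p = 0.0194, lower in 3 of 3). It fell by 1.19 without knockdown replicate 2 (adjusted p = 7.12e-06). The call was lost with the length correction (−0.87, adjusted p = 0.096), and it was lost in each of the 5 fits that left out another library (adjusted p = 0.0799 to 0.149), where limma called between 0 and 94 genes in all.

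Mmp14 (MT1-MMP), which cuts fibrillar collagen and activates the Mmp2 precursor, was the most abundant Mmp per kb in the controls and in knockdown replicate 2, while Mmp2 was slightly above it in knockdown replicates 1 and 3 (both 41.9% of the summed Mmp level, where Mmp14 had 40.6 and 40.9%). It was very even in the controls, at 13298, 13150 and 13139. In the knockdowns replicates 1 and 3 were at 8464 and 8142 and replicate 2 at 12809, all below the controls. The difference did not pass with all libraries (log2 fold change −0.46, SE 0.23, adjusted p = 0.32), and without knockdown replicate 2 Mmp14 fell 1.59-fold (adjusted p = 1.02e-06). Mmp16 (MT3-MMP) overlapped between the groups, with a log2 fold change of 0.06 (95% interval −0.59 to 0.71) that turned to −0.08 when every library was scaled to the same total; without knockdown replicate 2 it rose (0.32, adjusted p = 0.0339). Mmp24 (MT5-MMP, best known from neurons) was level at 338 to 369 in the controls, against 435 and 337 in knockdown replicates 1 and 3, but at 2258 in replicate 2, the only library that stood high. It was not called with all libraries (log2 fold change 0.95, SE 0.72, adjusted p = 0.467) or without that library (0.10, adjusted p = 0.471). Exons of Mmp24 overlap BC029722 and exons of Mmp19 overlap Tmem198b, both on the other strand.

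The promoter of Mmp15 and that of Adam23, the member that rose with all libraries, are shown because these were the only calls with all libraries and both carry dense CpG dinucleotides, the sequence feature of promoters that Polycomb complexes are known to bind. The windows run from 250 bases before to 50 bases after the transcript start in RefSeq on build GRCm38.p6, and CpG dinucleotides are in capitals. Windows matched 52 of the 83 members.
Adam23, chr1:63445641-63445940, plus strand: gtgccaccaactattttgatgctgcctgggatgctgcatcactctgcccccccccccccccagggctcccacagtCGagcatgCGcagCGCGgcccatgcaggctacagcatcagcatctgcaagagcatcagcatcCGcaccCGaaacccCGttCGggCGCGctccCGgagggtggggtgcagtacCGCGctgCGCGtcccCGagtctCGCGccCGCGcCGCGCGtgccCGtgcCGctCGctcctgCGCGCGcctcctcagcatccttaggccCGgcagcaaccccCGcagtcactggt
Mmp15, chr8:95352046-95352345, plus strand: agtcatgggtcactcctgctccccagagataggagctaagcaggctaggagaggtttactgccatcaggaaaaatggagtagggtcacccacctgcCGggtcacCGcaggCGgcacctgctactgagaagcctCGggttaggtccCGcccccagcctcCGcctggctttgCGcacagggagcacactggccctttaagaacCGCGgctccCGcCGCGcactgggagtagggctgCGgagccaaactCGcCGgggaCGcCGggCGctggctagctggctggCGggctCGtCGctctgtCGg
Adam23 has 31 CpG dinucleotides in its 300 bases and Mmp15 has 22. The median was 22.5 over the 28 windows of tested members, 20 over the windows of all genes tested and 2 over the 29 windows of members under the filter. Members that rose without knockdown replicate 2 had a median of 25 (7 windows) and those that fell had 22 (9 windows). Binding of Polycomb complexes to these promoters was not tested.

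A block of 10 neighbouring Mmp genes on chromosome 9 was at or near 0 in both groups. In RefSeq order these are Mmp13, Mmp12, Mmp1b, Mmp3, Mmp1a, Mmp10, Mmp8, Mmp27, Mmp20 and Mmp7, the collagenases, stromelysins, matrilysin, the macrophage elastase Mmp12 and the enamel enzyme Mmp20. Of these, 7 were listed at 0 in all 6 libraries, and the highest value of the other 3 was 1.13 (Mmp27 in knockdown replicate 1), under the 1.70 that 3 reads are worth there. The protein-coding genes on either side were expressed, Dcun1d5 at 514 to 571 and Tmem123 at 1147 to 1358 in the controls. No member of the block came above the value of 3 reads in any knockdown library, a limit of 1.70 and 2.13 in knockdown replicates 1 and 3 and of 12.8 in the shallower replicate 2, which covers counting error only.

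The promoters of this block have few CpG dinucleotides, 0 to 7 per window, and most carry the binding motif of AP-1, the Fos and Jun factor through which collagenase and stromelysin genes are classically induced. The motif TGANTCA, which is its own reverse complement so that both strands are read at once, was found in 8 of the 12 windows of the block, those of 8 genes, between 35 and 95 bases before the start. It was in 7.81% of all 32851 promoter windows, 10.5% of those of genes under the filter and 5.07% of those of all genes tested. The matches are printed with 10 bases on each side and the motif in capitals, to show how alike their placing is. A match describes the letters only. The pattern leaves the middle base open and so is wider than the usual AP-1 site, which has C or G there. The Mmp20 match has A in that place, and the shares above count such matches too.
Mmp13, chr9:7272469-7272495, plus strand, match starting 35 bases before the transcript start: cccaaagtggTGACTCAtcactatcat
Mmp12, chr9:7347320-7347346, plus strand, match starting 44 bases before the transcript start: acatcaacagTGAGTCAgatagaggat
Mmp1b, chr9:7388103-7388129, minus strand, match starting 93 bases before the transcript start: ttacaaagccTGAGTCAtatagcctct
Mmp3, chr9:7445766-7445792, plus strand, match starting 46 bases before the transcript start: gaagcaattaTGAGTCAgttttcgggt
Mmp1a, chr9:7464058-7464084, plus strand, match starting 73 bases before the transcript start: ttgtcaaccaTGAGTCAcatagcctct
Mmp10, chr9:7502269-7502295, plus strand, match starting 63 bases before the transcript start: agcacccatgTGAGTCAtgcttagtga
Mmp20, chr9:7628126-7628152, plus strand, match starting 95 bases before the transcript start: atttgagacaTGAATCAtcacttacag
Mmp7, chr9:7692017-7692043, plus strand, match starting 63 bases before the transcript start: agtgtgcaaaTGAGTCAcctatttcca
Among the 28 windows of tested members 1 held the motif, that of an Adam19 start.

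**Figure D3:**
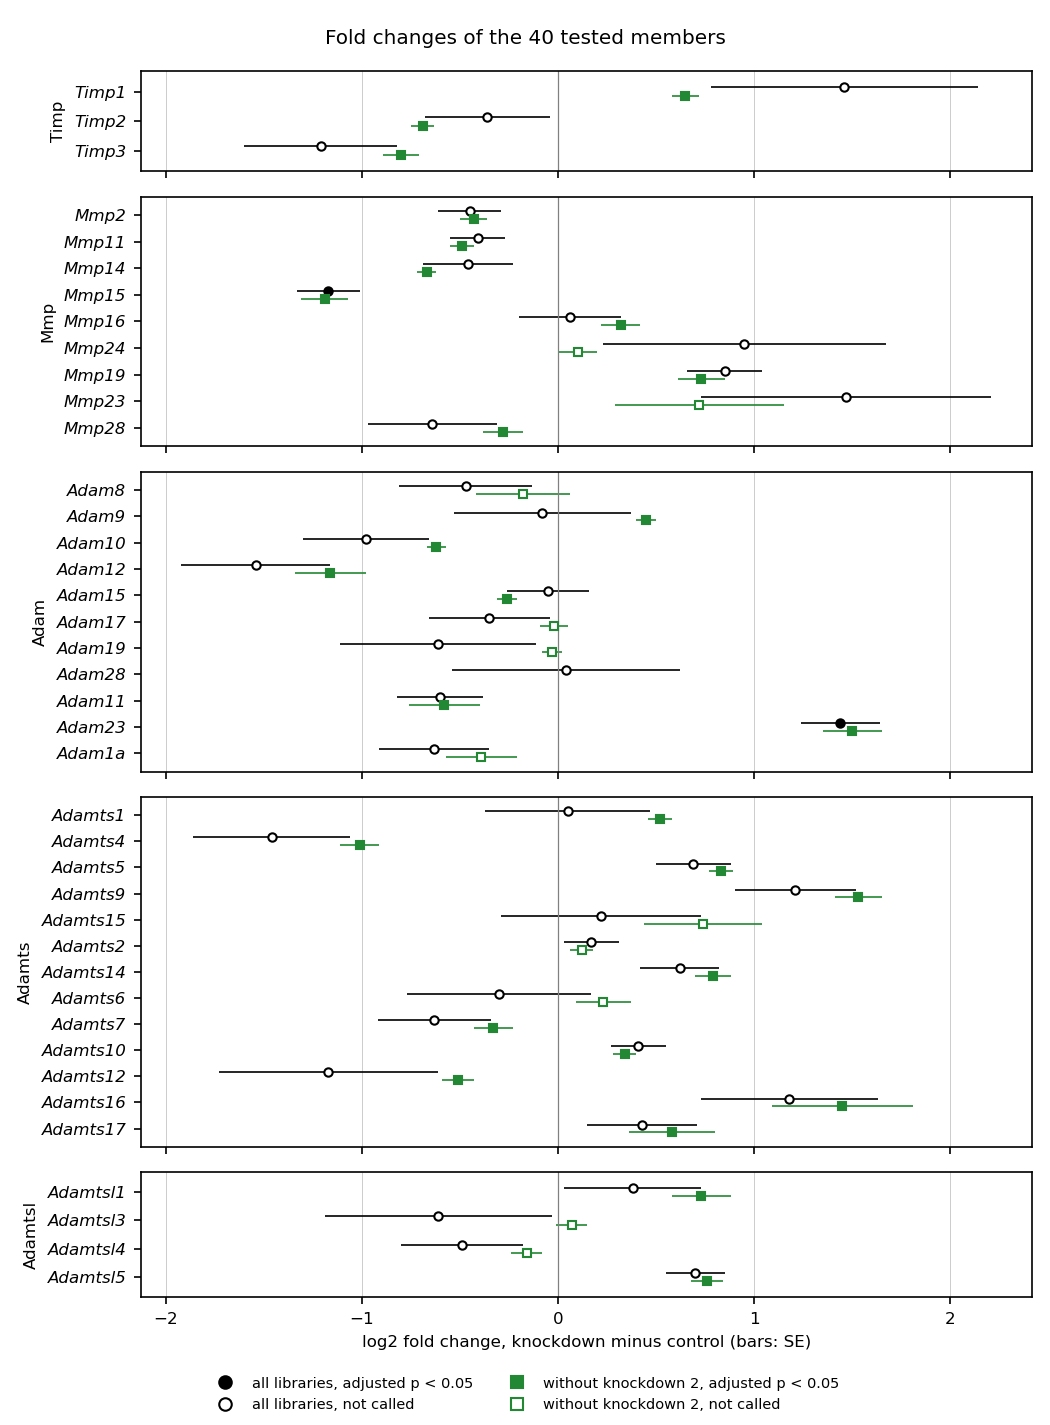
Log2 fold changes (knockdown minus control, from log2(value + 1)) of the 40 tested members, with standard errors as bars. Black circles use all libraries and green squares leave out knockdown replicate 2; filled symbols have an adjusted p under 0.05, which with all libraries holds for Mmp15 and Adam23 alone.

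Among the Adam genes with an active protease site, Adam10 and Adam12 were lower and Adam9 was not. Adam10, the sheddase that starts Notch receptor cleavage, stood at 3332, 3518 and 3487 in the controls, against 2246, 1054 and 2238 in the knockdowns. The groups were apart and the mean was 1.87-fold lower, without passing (log2 fold change −0.98, SE 0.32, adjusted p = 0.169). Adam10 fell without knockdown replicate 2 (−0.62, SE 0.05, adjusted p = 1.24e-06) and with the length correction (adjusted p = 0.0324). Adam12 (meltrin alpha), made by mesenchymal precursors of muscle, fat and bone, had the lowest log2 fold change of all tested members. It was at 578, 366 and 410 in the controls, against 207, 89.3 and 189 in the knockdowns, a 2.79-fold lower mean (log2 fold change −1.54, SE 0.38, adjusted p = 0.0908). Without knockdown replicate 2 Adam12 fell 2.28-fold (adjusted p = 0.00125), and it fell with the length correction too (adjusted p = 0.0282).

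Adam9, a widely expressed sheddase, was 2836, 2819 and 2712 in the controls and 3827 and 3785 in knockdown replicates 1 and 3, with 1267 in replicate 2. Its sign depended on that library, with a log2 fold change of −0.08 (SE 0.45) with all libraries and 0.45 (SE 0.05, adjusted p = 1.53e-05) without it. The ratio of Adam9 to Adam10 within a library, which no scaling can change and which joins 2 transcripts of 3985 and 4593 nt, was 0.851, 0.801 and 0.778 in the controls and 1.7, 1.2 and 1.69 in the knockdowns. The pair was chosen after its values were seen, so the ratio carries no test, but all knockdown libraries, replicate 2 included, had the higher ratio.

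Adam17, which releases tumour necrosis factor and ligands of the EGF receptor, overlapped between the groups at 1995 to 2355 in the controls and 1068 to 2246 in the knockdowns. Its log2 fold change was −0.35 (95% interval −1.11 to 0.41) with all libraries and −0.02 (SE 0.07, adjusted p = 0.88) without knockdown replicate 2. Adam19 (meltrin beta) was likewise within 0.03 log2 units of the controls without that library and at 293 against 985 and 991 in it. Adam15 fell by 0.26 without knockdown replicate 2 (adjusted p = 0.00171) and overlapped with all libraries (−0.05, adjusted p = 0.879). Adam8 and Adam28, both known from blood cells, were low, at 17.0 to 45.6 and 5.59 to 26.7, and neither was called (Adam28 was under the filter without knockdown replicate 2). Adam33 reached at most 0.90. Exons of Adam17 overlap those of Iah1 on the other strand, whose control mean was 635.

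Adam23 was the member that rose with all libraries. Its product lacks a working protease site and acts as a cell-surface binding partner, best known in neurons, where Adam11 and Adam22 have like roles. It stood at 211, 180 and 151 in the controls, against 581, 453 and 444 in the knockdowns. The groups were well apart, and knockdown replicate 2 sat between the other knockdowns, a 2.73-fold rise (log2 fold change 1.44, SE 0.20, adjusted p = 0.0201, higher in 3 of 3). Adam23 rose by 1.5 without knockdown replicate 2 (adjusted p = 3.53e-05) and by 1.80 with the length correction (adjusted p = 0.0139). It missed the threshold with every library scaled to the same total (adjusted p = 0.0981) and in the 5 fits that left out another library (adjusted p = 0.0747 to 0.134). Adam11 was lower, at 115, 81.6 and 107 against 58.2, 63.8 and 76.1, and passed only without knockdown replicate 2 (−0.58, adjusted p = 0.0213; with all libraries −0.60, adjusted p = 0.197). Adam22 was under the filter, at 2.51 to 4.92 in the controls and 4.25 to 7.82 in the knockdowns.

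The remaining 20 Adam genes, most of them known from testis, were at or near 0 apart from Adam1a. In all libraries 11 were listed at 0, 8 more were under the filter, with no value above 14.5 (Adam5 in control replicate 3), and 1, Adam1a, was tested. Adam1a had 85.0, 66.1 and 72.0 in the controls and 63.0, 34.0 and 50.2 in the knockdowns (log2 fold change −0.63, adjusted p = 0.276), and its exons overlap those of Mapkapk5 and Tmem116. Of the 7 germ cell markers, Tnp1, Prm2 and Acrv1 were listed at 0 in every library, and Ddx4, Dazl and Prm1 reached at most 1.70, 0.57 and 1.81. Sycp3 was 22.8, 22.6 and 18.1 in the controls and 7.92, 12.8 and 12.8 in the knockdowns.

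The Adamts enzymes that cut large proteoglycans went in both directions. Adamts5, the main aggrecan-cutting enzyme of mouse cartilage, stood at 5405, 6057 and 5717 in the controls, against 10462, 7659 and 9905 in the knockdowns. All 3 knockdowns were above all controls (1.63-fold, log2 fold change 0.69, SE 0.19), short of the threshold with all libraries (adjusted p = 0.107). Adamts5 rose 1.78-fold without knockdown replicate 2 (adjusted p = 5.56e-07) and passed with the length correction (adjusted p = 0.0369). Adamts9, a relative that cuts versican and aggrecan, was at 263, 273 and 232 in the controls, against 848, 383 and 643 in the knockdowns, again without overlap (2.44-fold, log2 fold change 1.21, SE 0.31, adjusted p = 0.0992). It rose 2.91-fold without knockdown replicate 2 (adjusted p = 1.89e-06) and had the smallest adjusted p of all members with the length correction (adjusted p = 0.00433).

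Adamts4, the other classical aggrecanase, was lower instead. Its controls were at 393, 391 and 404 and its knockdowns at 217, 76.5 and 177, a 2.52-fold lower mean (log2 fold change −1.46, SE 0.40, adjusted p = 0.114). Adamts4 fell by 1.01 without knockdown replicate 2 (SE 0.10, adjusted p = 5.05e-06) and fell with the length correction (adjusted p = 0.0304). Within a library, the ratio of Adamts5 to Adamts4 was 13.8, 15.5 and 14.2 in the controls and 48.2, 100 and 56.0 in the knockdowns, a pair chosen after its values were seen and so given with no test. Adamts1, the most abundant Adamts gene per kb, was at 7426, 7675 and 7286 in the controls, against 11423, 3992 and 10062 in the knockdowns. Its log2 fold change was 0.05 with all libraries, −0.09 with every library scaled to the same total, and 0.52 without knockdown replicate 2 (adjusted p = 3.09e-05). Adamts15 (11.7 to 19.2 in the controls) was not called in either fit, and Adamts8 and Adamts20 were under the filter, at no more than 1.13 and 2.51. Exons of Adamts9 overlap A730049H05Rik on the other strand.

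Of the enzymes that trim the amino end of fibrillar procollagens, Adamts14 had higher values in every knockdown library and Adamts2 overlapped. Adamts14 was at 239, 266 and 239 in the controls, against 463, 302 and 399 in the knockdowns, without overlap (1.56-fold, log2 fold change 0.62, SE 0.20, adjusted p = 0.161). It rose without knockdown replicate 2 (0.79, adjusted p = 2.73e-05) and with the length correction (adjusted p = 0.0129). Adamts2, the more abundant of the pair, was at 1359 to 1512 and at 1484 to 1705, with a log2 fold change of 0.17 (95% interval −0.17 to 0.51). Adamts3 was listed at 0 in every library.

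The other Adamts genes went in both directions. Adamts12, which like Adamts7 cuts the cartilage protein Comp, was at 503, 491 and 447 in the controls, against 337, 85.0 and 335 in the knockdowns (log2 fold change −1.17, SE 0.56, adjusted p = 0.306). Without knockdown replicate 2 both fell, Adamts12 by 0.51 (adjusted p = 0.000187) and Adamts7 by 0.33 (adjusted p = 0.0135). Adamts10, a partner of fibrillin microfibrils, was at 865 to 954 in the controls and 1097 to 1313 in the knockdowns (log2 fold change 0.41, adjusted p = 0.19; 0.34, adjusted p = 0.000944 without knockdown replicate 2). Adamts16 was low but apart, at 33.1, 22.6 and 12.6 against 73.5, 34.0 and 48.3 (log2 fold change 1.18, SE 0.45, adjusted p = 0.221; 1.45, adjusted p = 0.00728 without knockdown replicate 2). Adamts17 rose only in the latter fit (0.58, adjusted p = 0.0472), and Adamts6 was not called and changed sign between the fits (−0.30 and 0.23). Adamts13 and Adamts18 reached at most 0.57 and 4.25, and Adamts19 was listed at 0. Exons of Adamts7 overlap those of Tbc1d2b on the other strand (control mean 1330).

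The Adamtsl genes encode matrix proteins without a protease domain. Adamtsl5 was at 507, 591 and 533 in the controls, against 959, 812 and 885 in the knockdowns. The groups did not overlap, and the 1.63-fold higher mean missed the threshold narrowly (log2 fold change 0.70, SE 0.15, adjusted p = 0.0582). It rose without knockdown replicate 2 (0.76, adjusted p = 7.01e-06) and did not pass with the length correction (0.42, SE 0.29, adjusted p = 0.398). Adamtsl1 also rose without knockdown replicate 2 (0.73, adjusted p = 0.00129) and did not pass with the length correction (0.65, adjusted p = 0.107). Adamtsl3, the most abundant of them per kb in the controls, stood at 4331, 5257 and 4856 in the controls, at 4748 and 5348 in knockdown replicates 1 and 3 and at 1220 in replicate 2, so that its log2 fold change was −0.61 (SE 0.58) with all libraries and 0.07 (SE 0.08, adjusted p = 0.507) without that one. Adamtsl4, linked to fibrillin in the eye, was not called in either fit.

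**Figure D4:**
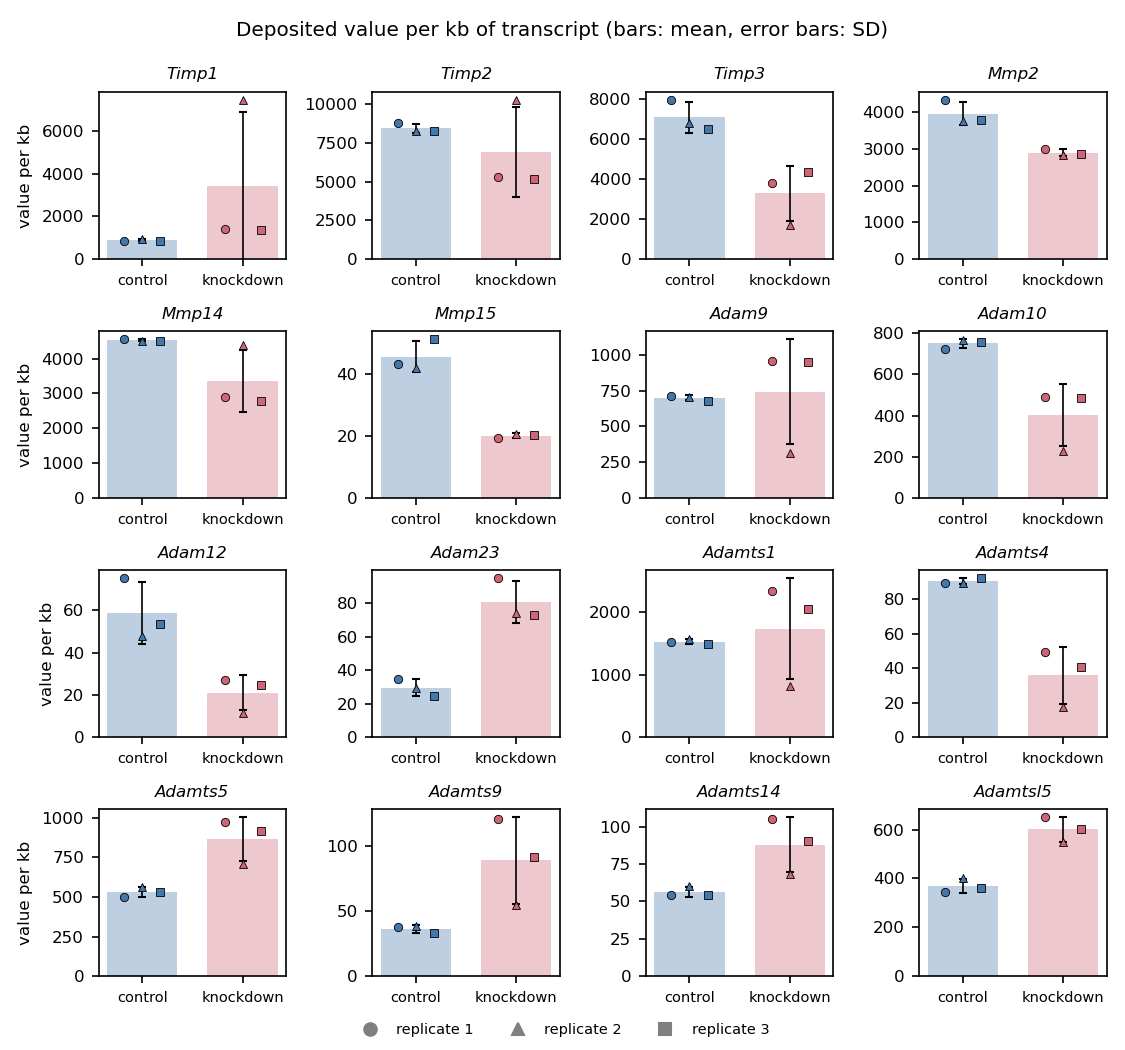
Deposited value per kb of transcript (vertical axes, each starting at 0) for 16 members in the control (blue) and knockdown (red) libraries; bars are means, error bars SD over n = 3, and marker shapes give the replicate, with the lower end of the Timp1 knockdown error bar cut at 0. Mmp15 and Adam23 show tight and separate groups, while replicate 2 (triangle) pulls the knockdown mean of Timp1, Timp2, Adam9 and Adamts1.

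Set per kb of transcript, which allows levels of different genes to be compared, 4 genes stood above the rest in the controls. Timp2 was first at 8432 ± 295 (SD, n = 3), followed by Timp3 at 7095 ± 771, Mmp14 at 4524 ± 30.5 and Mmp2 at 3959 ± 320. The 3 control libraries of each of these genes lay above all those of the next. Adamts1 (1528 ± 40.4) and Adamtsl3 (1009 ± 97.3) came next, then Timp1 (884 ± 65.3), Adam15 (772 ± 25.1), Adam10 (750 ± 21.7) and Adam9 (700 ± 16.9). Adam15 and Adam10 differed by less than the SD of Adam15. Adam23 (29.6 ± 4.88) and Adamts9 (36.4 ± 3.09) were far lower. The summed Timp level per kb was 17600, 16000 and 15600 in the controls, 10500 and 10900 in knockdown replicates 1 and 3, and 19400 in replicate 2. The summed Adamts level was 2960, 3040 and 2890 in the controls and 4430, 2490 and 3990 in the knockdowns. Timp per Adamts was thus 5.95, 5.27 and 5.40 in the controls, 2.37 and 2.73 in knockdown replicates 1 and 3, and 7.79 in replicate 2, with replicate 2 on the other side of the controls. Timp per Mmp moved less, at 1.73, 1.68 and 1.64 in the controls and 1.47, 2.22 and 1.59 in the knockdowns. Timp per Adam was 5.74, 5.40 and 5.16 in the controls and 3.61, 9.90 and 3.80 in the knockdowns. Mmp14 per Timp2, taken on the deposited values, stayed between 0.409 and 0.433 in the controls and knockdown replicates 1 and 3, and was 0.336 in replicate 2.

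Genes that activate, inhibit or steer these enzymes were read from a list of 39, all present in the table, of which 26 were tested. With all libraries 1 rose and 2 fell, 11.5% of them, where 4.98% of all genes tested were called, and the median log2 fold change was 0.38 (0.01 over all genes tested). Pcsk6, a convertase that cuts the propeptide of several metalloproteases, was at 132, 178 and 164 in the controls, against 786, 480 and 806 in the knockdowns (log2 fold change 2.10, SE 0.26, adjusted p = 0.0159). Tspan15, a tetraspanin that carries Adam10 to the cell surface, went from 830, 938 and 837 to 398, 239 and 381 (log2 fold change −1.39, SE 0.24, adjusted p = 0.0341). Pcsk6 and Tspan15 were also called without knockdown replicate 2 (adjusted p = 5.26e-08 and 1.7e-07). With every library scaled to the same total, both missed the threshold (adjusted p = 0.0784 and 0.129). The third call was the substrate gene Acan, which encodes aggrecan. It was at 198, 183 and 201 in the controls and 3.39, 8.50 and 4.26 in the knockdowns and fell by 5.01 on the log2 scale (SE 0.33, adjusted p = 0.00535), with the value in knockdown replicate 2 under the 12.8 that 3 reads are worth there. Tspan14, with the same role for Adam10, was at 2702, 2872 and 2783 against 1477, 799 and 1564 (−1.18, SE 0.28, adjusted p = 0.0853). Of the other tetraspanins on the list that partner Adam10, Tspan17 had higher values in every knockdown, at 546, 630 and 648 against 872, 2933 and 873 (1.11, SE 0.50, adjusted p = 0.285), and rose without knockdown replicate 2 (0.52, adjusted p = 0.000148). Tspan5 was not called in either fit (0.33 and 0.09), and Tspan10 and Tspan33 were under the filter.

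The plasminogen activator genes were higher in every knockdown library. Plat stood at 316, 256 and 279 in the controls, against 843, 412 and 775 in the knockdowns (log2 fold change 1.19, SE 0.31, adjusted p = 0.0997). For Plau, whose product turns plasminogen into plasmin at the cell surface, the values were 242, 306 and 304 against 490, 421 and 664 (0.87, adjusted p = 0.0994). Its receptor gene Plaur was at 53.1, 50.1 and 64.1 against 166, 85.0 and 205 (1.35, adjusted p = 0.106). None of these 3 passed with all libraries, and all 3 rose without knockdown replicate 2 (adjusted p = 1.46e-07 for Plat, 0.000422 for Plau and 4.58e-06 for Plaur). Of the 26 list members tested in that fit, 14 rose and 8 fell, 84.6%, where 49.9% of all genes tested were called. Furin, the activator gene whose product activates Mmp11, went the other way, at 2549, 2395 and 2486 in the controls against 2264, 830 and 2185. It did not pass with all libraries (−0.63, SE 0.41, adjusted p = 0.42) and fell without knockdown replicate 2 (−0.15, adjusted p = 0.0257). Reck, a membrane-bound inhibitor of Mmp enzymes, was at 1030 to 1095 in the controls, against 966, 378 and 1004 in the knockdowns and was called in neither fit.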

How the data were processed

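RNA sequencing libraries of C3H10T1/2 cells, 3 per group, were made with Trizol and the Illumina TruSeq protocol, per the labels' protocols. Bowtie 1.0.0, RSEM 1.2.12 and build mm9 were used, per the submitters' processing notes; the sources used here give neither annotation nor strand setting. The authors deposited a signal per gene, RSEM estimates labelled median normalized, and a list of 323 differential genes with the authors' own fold. Of low values (at most 20 reads), 88.3 to 90.5% came out whole within 0.1 read, so no count test was run. Total depth was estimated from that step.

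Genes with a mean of at least 10 entered limma 3.58.1 (R 4.3.3) as log2(value + 1), with a trended, robust empirical Bayes prior. The p-values were two-sided, with Benjamini-Hochberg adjustment at 0.05. The fit was checked on simulated data in which every library had the scatter of the controls. No simulated library stood apart as knockdown replicate 2 does, so the check does not cover that case. An exact permutation test of 3 against 3 gives no p below 0.1. The labels do not say whether replicates were separate cultures, so p-values measure only how these samples scatter, possibly for technical reasons. Alternatives were another added value (0.5, 5), filter (50, none), scaling, library weights, prior, replicate block and each library left out.

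Lengths are medians of protein-coding transcripts in GENCODE M21 and promoter windows are RefSeq's, both on GRCm38, a newer build than the authors'; no coordinates were converted. Near-identical pairs (Mmp1a and Mmp1b, Adam1a and Adam1b, Adam6a and Adam6b, Adam26a and Adam26b) are uncertain, since RSEM can split their reads. Every tested member was named. Genes of the activator, inhibitor and partner list were named if they passed, with up to 2 others per class. Beyond this rule, the activators Plaur and Furin were chosen after their values were seen, and every tetraspanin on the list was named. The members and lists were chosen with earlier results of these data known. Some genes are not reported here.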

Additional observations from a re-analysis of the deposited data

How the results depend on the processing

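With all libraries 1 member was called higher and 1 lower, with 602 genes called in all and 3 of the activator, inhibitor and partner genes. Added values, filters, upper-quartile scaling and the plain prior left the member counts and their names as they were. Total scaling, under which the median over all genes went from 0.01 to −0.14, gave 0 members higher and 1 lower, 302 genes and 1 list gene. Library weights (0.0172 for knockdown replicate 2 and 1.45 to 3.14 for the others) gave 16 higher, 15 lower, 6302 genes and 22 list genes. The fits that left out a library ranged from 0 to 14 members higher, 0 to 14 lower, 0 to 5991 genes and 0 to 22 list genes, the upper ends all without knockdown replicate 2. With 0 members called, 3 to 7 per direction still had an unadjusted p under 0.05 in limma, beside 1475 to 2482 of all genes tested in either direction. Fits without a control library called 0 genes, with 1475 to 1529 at an unadjusted p under 0.05. With the replicate number as a block (replicate block) limma called 0 members higher, 0 lower, 0 genes and 0 list genes (1866 genes and 6 and 5 members at an unadjusted p under 0.05), but same-numbered libraries did not deviate together (correlations 0.17, −0.0506 and −0.0507), so the numbers were not taken as pairs. The length correction, chosen after seeing the data, gave 5 higher, 5 lower, 1333 genes and 12 list genes, and without knockdown replicate 2 as well 16, 14, 6124 and 21.

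Of 673 member log2 fold changes under alternatives, 26 changed sign, all of members not called with all libraries; the cause was not tested. Under total scaling these were Mmp16 (−0.08), Adam28 (−0.10) and Adamts1 (−0.09). With library weights they were Adam9 (0.45), Adam28 (−0.63), Adamts6 (0.24) and Adamtsl3 (0.05). The length correction turned Adam9 (0.11) and Adamts6 (0.03), and with knockdown replicate 2 also left out Adam9 (0.49), Adam17 (0.04), Adam19 (0.05), Adamts6 (0.30) and Adamtsl3 (0.13). Leaving out a library turned the sign of Mmp16 (range −0.09 to 0.32), Adam9 (−0.35 to 0.45), Adam15 (−0.26 to 0.07), Adam28 (−0.07 to 0.46), Adamts1 (−0.24 to 0.52), Adamts15 (−0.08 to 0.74), Adamts6 (−0.59 to 0.23) and Adamtsl3 (−1.0 to 0.07), in each case without knockdown replicate 1, 2 or 3 or, for Mmp16 and Adam28, a control. Depth limits the low members, since 3 reads are worth 12.8 in knockdown replicate 2 and 7.52 in control replicate 2.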

Other observations

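Several members below the filter had low values that were not 0 in some libraries. Mmp25, an enzyme anchored by a lipid and known from neutrophils, was the 1 member in the authors' deposited table of 323 differential genes, with a fold of 23.2 there. Its values were 0.51, 0 and 0 in the controls and 6.79, 0 and 5.68 in the knockdowns, and the 0 in knockdown replicate 2 allows up to 12.8 (3 reads, counting error only). Mmp17, also anchored by a lipid, was at 3.37, 0 and 4.52 against 13.6, 8.50 and 4.97. Mmp9 (gelatinase B) was at 1.04, 0 and 0 against 1.13, 0 and 5.68. The leukocyte markers summed to 24.3 to 28.6 in the controls and 33.4 to 59.5 in the knockdowns, highest in knockdown replicate 2, where Mmp9 was 0. Lyz2 and Cd68 had the highest values among them, and Emr1, Tyrobp and Cd3e were 0 in every library. Their part in the Mmp9 values was not tested. Adamtsl2, a partner of fibrillin and latent TGF-beta binding proteins, was at 0.26, 0 and 0 against 1.13, 4.25 and 2.13. None of these was tested in the fit with the filter. The fit with no filter on low genes tested 63 members and called only Adam23 and Mmp15.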
